A study of Homo sapiens with 4 samples.

Results

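The Notch pathway was followed through 10 genes in LNCaP cells, out of 19801 genes listed in the deposited files. These were the receptors NOTCH1, NOTCH2 and NOTCH3, the ligands JAG1 and JAG2, the receptor modifier LFNG, the DNA-binding factor RBPJ, and the transcription factor genes HES1, HEY1 and HES6. The genes were chosen by name, through their Entrez Gene identifiers, with RPKM values of these libraries already in view. Their values are therefore a description and carry no test. All 10 reached an RPKM of 1 in some library, as did 14626 genes in all.

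LNCaP is an established human prostate cancer line. Cells grown in 10% serum were transfected for 24 h with an empty vector or with the construct labelled AR1-651. Over the next 12 h they received ailanthone (AIL), a natural small molecule, or no AIL, so that there were libraries of empty vector without and with AIL and of AR1-651 without and with AIL, listed below in this order. Each condition was 1 library. The share of cells that took up a plasmid is not given in the sources used here. With 1 library per condition no difference had a replicate check, so no p-value, standard deviation or standard error is given. RNA came from whole cultures, so the same shift in every cell and a larger shift in part of the cells cannot be told apart.

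Notch receptors are membrane proteins that are switched on by ligands on a neighbouring cell. Ligand binding exposes the receptor to cleavage by ADAM10 and then by the gamma-secretase complex, and the freed intracellular domain enters the nucleus and joins RBPJ. RBPJ holds target genes down with corepressors such as SPEN, and turns them on when the Notch domain and a Mastermind coactivator (MAML1) are bound. HES1 and HEY1 are classic direct targets and encode repressors. HES6 encodes a related factor that is known to oppose HES1. LFNG, the lunatic fringe gene, encodes a Golgi enzyme that adds N-acetylglucosamine to O-fucose on the receptors, which favours activation by Delta ligands over Jagged ligands. In prostate epithelium the pathway takes part in growth and in the luminal and basal cell programmes.

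AR1-651 and empty vector name the libraries by their labels. All 8 luminal prostate markers checked were detected. KLK3, the gene of prostate-specific antigen, had an RPKM of 286.61, 302.56, 1442.16 and 581.52 in the order of libraries given above. Of 12 markers of basal, fibroblast, endothelial and blood cells, 8 were analysed, and 2 reached an RPKM of 1, COL1A1 (at most 4.59) and CD68 (at most 12.2). Basal KRT14 lay between 0 and 0.21. The sequencing depth is unknown. A relative depth taken from low values of short genes lay between 0.948 and 1.12 times that of empty vector. It rested on the ratio that the most such genes shared, and the other genes gave other ratios. Sharing it were 22 of 63 genes with empty vector + AIL, 28 of 82 with AR1-651 and 21 of 63 with AR1-651 + AIL. Ribosomal protein genes held 23.0%, 22.2%, 32.9% and 25.4% of the summed RPKM in the order of libraries given above, so the AR1-651 library stood apart.

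Promoter sequences of LFNG and HES1 are shown because these genes had the largest AIL difference and the classic target role among the 10 genes, and because both hold the core of the RBPJ site. The windows are from RefSeq on GRCh38.p14 and run from 250 bases before a transcript start to 20 bases after it, 270 bases in all, on the plus strand. Capitals mark TGGGAA, the core of the RBPJ site, or its reverse complement TTCCCA. The HES1 window is chr3:194135898-194136167, and the LFNG windows, at separate starts, are chr7:2512279-2512548 and chr7:2517613-2517882.
HES1: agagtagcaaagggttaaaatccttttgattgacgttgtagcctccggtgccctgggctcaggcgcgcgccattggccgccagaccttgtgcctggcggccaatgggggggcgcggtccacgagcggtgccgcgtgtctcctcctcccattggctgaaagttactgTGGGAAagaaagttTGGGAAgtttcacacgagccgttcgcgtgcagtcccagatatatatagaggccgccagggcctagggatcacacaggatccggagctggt
LFNG, upstream start: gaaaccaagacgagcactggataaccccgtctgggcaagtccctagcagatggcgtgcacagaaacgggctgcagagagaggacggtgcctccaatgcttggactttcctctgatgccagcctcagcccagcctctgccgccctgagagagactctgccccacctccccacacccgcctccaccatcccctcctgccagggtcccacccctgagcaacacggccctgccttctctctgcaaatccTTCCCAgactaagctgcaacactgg
LFNG, downstream start: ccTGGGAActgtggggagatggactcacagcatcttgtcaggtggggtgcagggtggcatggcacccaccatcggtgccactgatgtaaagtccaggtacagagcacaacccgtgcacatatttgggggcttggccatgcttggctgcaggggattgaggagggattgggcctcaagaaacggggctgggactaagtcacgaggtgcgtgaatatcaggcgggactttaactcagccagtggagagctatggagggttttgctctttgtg

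The HES1 window held the core 2 times on the plus strand, beginning at -84 and -70, counted from the start, whose base is +1. Of 35116 RefSeq windows of 300 bases (250 before and 50 after a start), 3.8% held 2 or more matches and 24.0% at least 1, on either strand. The upstream LFNG window held 1 match on the minus strand, from -5, and the downstream window 1 on the plus strand, from -248. A window was found for 9 of the 10 genes, 14 windows in all, and the RBPJ core lay in 4 of these, belonging to HES1, LFNG and RBPJ. The RBPJ window with the core also held 2 matches, from -115 on the minus strand and -72 on the plus strand. The N box CACNAG, or CTNGTG, which HES proteins are known to bind, lay in 6 of the 14 windows and in 38.0% of all windows. Neither motif contains the other. A match in such a window describes the letters only.

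LFNG was the gene with the widest range. It had an RPKM of 29.24 with empty vector and 3.31 with empty vector + AIL, against 15.47 with AR1-651 and 1.28 with AR1-651 + AIL. Both libraries with AIL lay below both libraries without it, and the highest value was 22.8 times the lowest. With AIL the RPKM was 8.83-fold lower in cells with empty vector and 12.1-fold lower in cells with AR1-651. On the log2(RPKM + 1) scale, on which all differences below are given, these were differences of -2.81 and -2.85. This scale understates differences of genes with low RPKM. Ordered by this difference, LFNG stood at place 36 from the lowest of 14626 genes in the first comparison and at place 32 in the second. With AR1-651 it was also below its counterpart with empty vector, by -0.88 without AIL and -0.92 with AIL, within 2-fold on this scale. The former passed 2-fold without ribosomal protein genes (-1.03), and the latter with a pseudocount of 0.1 (-1.31). With a trend in length and GC content removed they were -0.59 and -0.53.

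LFNG belongs to a small family of fringe enzymes with RFNG (radical fringe) and MFNG (manic fringe). RFNG had an RPKM of 22.11 with empty vector and 27.76 with empty vector + AIL, against 12.69 with AR1-651 and 12.78 with AR1-651 + AIL, while MFNG was listed at 0 in 3 libraries and at 0.09 in the fourth. LFNG thus held 56.9% of the summed fringe RPKM with empty vector and 54.9% with AR1-651, but 10.7% with empty vector + AIL and 9.05% with AR1-651 + AIL. RFNG exceeded LFNG 8.39-fold with empty vector + AIL and 9.98-fold with AR1-651 + AIL. Without AIL, LFNG was the higher of the pair in both libraries. A share within a library does not depend on how libraries are scaled to each other.

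**Figure D1:**
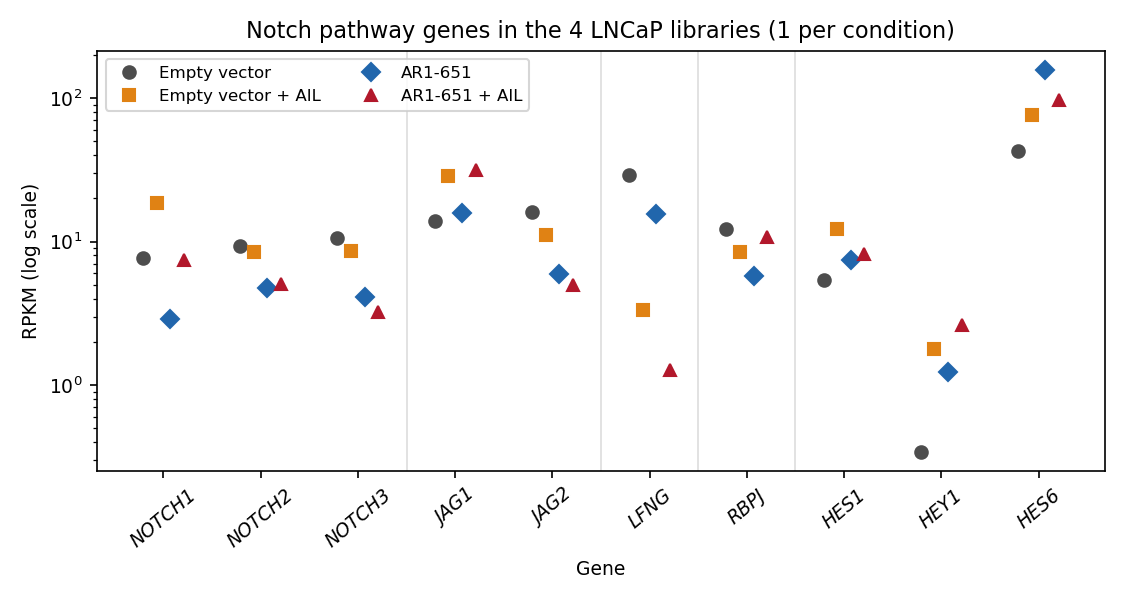
RPKM of the 10 genes in each library on a log axis, with 1 point per library, coloured by condition. LFNG spans 1.28 to 29.24 with both AIL libraries lowest, while HES6 is the highest of the 10 genes in every library.

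The receptors differed from one another. NOTCH1 had an RPKM of 7.63 with empty vector and 18.47 with empty vector + AIL, against 2.89 with AR1-651 and 7.46 with AR1-651 + AIL. It was higher with AIL in both backgrounds, by 1.17 and 1.12, and lower with AR1-651 both without AIL (-1.15) and with AIL (-1.20). These 4 differences all exceeded 2-fold, and the library with both AR1-651 and AIL lay near the level of empty vector alone. NOTCH3 had values of 10.56, 8.53, 4.08 and 3.21 in the same order. It was lower with AR1-651 by -1.19 without AIL and -1.18 with AIL, and with AIL it differed by only -0.28 and -0.27. NOTCH2 had values of 9.36, 8.46, 4.74 and 5.05, with AR1-651 differences of -0.85 and -0.64. NOTCH2 shares sequence with its human-specific NOTCH2NL copies, and how reads were divided between them is not given in the sources used here, so its values are uncertain. NOTCH4 stayed at or below 0.15 in all 4 libraries.

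Within the receptors the balance moved with AIL. NOTCH1 made up 27.7% of the summed RPKM of the 3 receptors with empty vector and 24.7% with AR1-651. With AIL it made up 52.1% and 47.5%. The sum itself was 27.5 with empty vector and 35.5 with empty vector + AIL, against 11.7 with AR1-651 and 15.7 with AR1-651 + AIL. The ratio of NOTCH1 to NOTCH3 was 0.723 and 0.708 in the libraries without AIL, and 2.17 and 2.32 with AIL.

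The ligands JAG1 and JAG2 bind the same receptors. JAG1 had an RPKM of 13.90 with empty vector and 28.60 with empty vector + AIL, against 15.90 with AR1-651 and 31.49 with AR1-651 + AIL. Both libraries with AIL were above both without it, 2.06-fold with empty vector and 1.98-fold with AR1-651 on the RPKM scale. On the log2 scale this was 0.99 and 0.94, just short of 2-fold. In empty vector cells it passed 2-fold with a pseudocount of 0.1 (1.04) and with a trend in length and GC content removed (1.19). Without ribosomal protein genes it was 0.89 there. In AR1-651 cells it stayed short of 2-fold, at 0.98 with that pseudocount, 0.73 with median-ratio scaling and 0.82 with the trend removed. JAG2 had values of 16.10, 11.19, 5.92 and 4.98 in the same order, and was lower with AR1-651 by -1.31 without AIL and -1.03 with AIL. The ratio of JAG1 to JAG2 was 0.863 with empty vector and 2.56 with empty vector + AIL, against 2.69 with AR1-651 and 6.32 with AR1-651 + AIL. JAG1 therefore held 46.3% of the Jagged RPKM with empty vector, against 71.9%, 72.9% and 86.3% in the other libraries.

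Among Delta ligands, DLL3 had the highest RPKM, with 8.09, 7.55, 10.64 and 5.64 in the order of libraries given above. DLL1 had 4.93, 5.26, 2.03 and 2.89, and DLL4 did not exceed 0.1. Per exon length, JAG1 was therefore above each Delta ligand measured in every library.

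**Figure D2:**
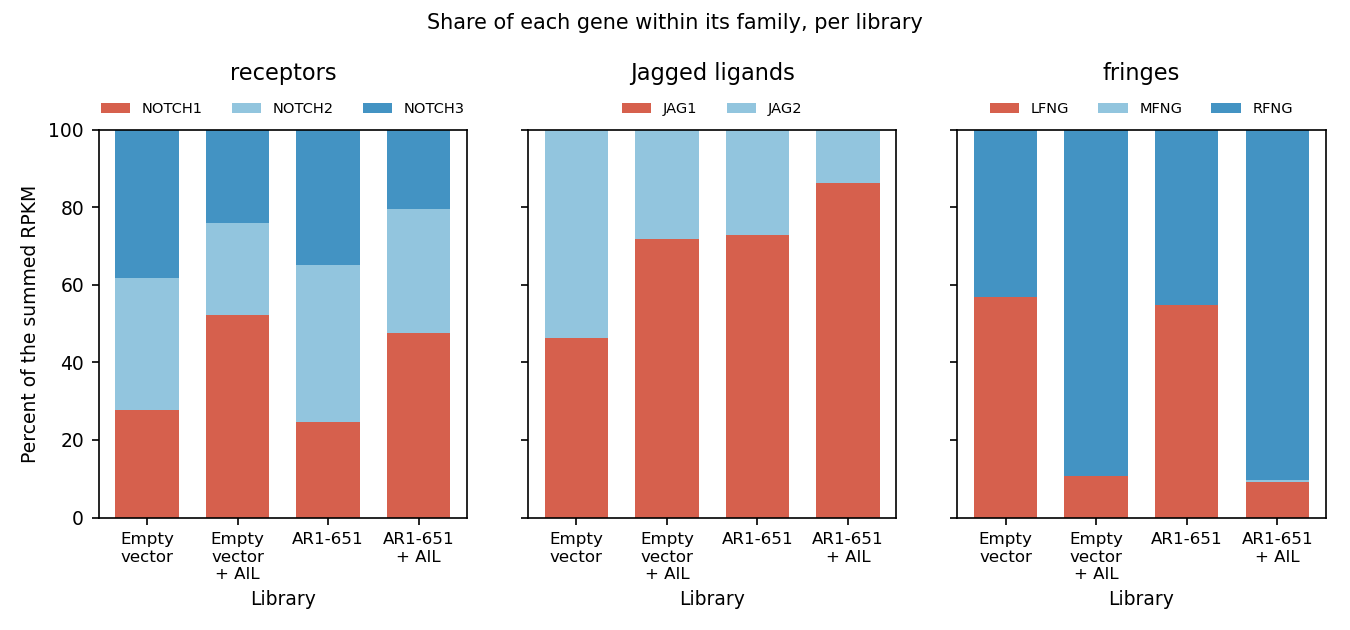
Percent of the summed RPKM held by each gene within the receptors, the Jagged ligands and the fringes, with 1 stacked bar per library. NOTCH1 goes from 27.7% to 52.1% and LFNG from 56.9% to 10.7% between empty vector and empty vector + AIL, and JAG1 is at 86.3% with AR1-651 + AIL.

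RBPJ, which links the receptors to their target genes, had an RPKM of 12.14 with empty vector and 8.47 with empty vector + AIL, against 5.79 with AR1-651 and 10.68 with AR1-651 + AIL. The library with AR1-651 alone was the lowest. AIL differed in sign between the backgrounds, with -0.47 in empty vector cells and 0.78 in AR1-651 cells, none of them 2-fold. With the trend in length and GC content removed, these differences were -0.49 and 0.24.

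As deposited, the RPKM of the target genes HES1 and HEY1 was higher in the libraries with AIL than in those without it. HES1 had an RPKM of 5.37 with empty vector and 12.18 with empty vector + AIL, against 7.41 with AR1-651 and 8.25 with AR1-651 + AIL. AIL went with a difference of 1.05 in empty vector cells and 0.14 in AR1-651 cells, so only the former passed 2-fold. It was 0.96 without ribosomal protein genes and 0.89 with the trend in transcript length and GC content removed, both short of 2-fold. The difference of HES1 in AR1-651 cells was near 0 and turned to -0.06 with median-ratio scaling. HEY1 was low throughout, with 0.34, 1.79, 1.24 and 2.64 in the same order, and had the lowest RPKM of the 10 genes in 3 libraries. Its AIL differences were 1.06 and 0.70, and the former was 0.91 with that trend removed. At values this low, the log2 difference depends on the constant added to the RPKM, and with 0.1 in place of 1 the AR1-651 difference without AIL went from 0.74 to 1.61.

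HES6 ran differently from HES1. HES6 had an RPKM of 43.00 with empty vector and 76.63 with empty vector + AIL, against 157.42 with AR1-651 and 97.77 with AR1-651 + AIL. It was highest with AR1-651 alone, 3.66-fold above empty vector, a log2 difference of 1.85 that stood at place 101 from the highest of 14626 genes. AIL went with a higher value in empty vector cells (0.82) and a lower one in AR1-651 cells (-0.68). The ratio of HES6 to HES1 was 8.01 with empty vector and 6.29 with empty vector + AIL, against 21.2 with AR1-651 and 11.9 with AR1-651 + AIL. HES4, another gene of the family, was also highest with AR1-651 alone and lowest with empty vector, with an RPKM of 1.52, 3.81, 5.24 and 1.69.

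In the order of the 10 genes within a library, LFNG moved over the most places. HES6 came first in each library. LFNG was at place 2 with empty vector and 3 with AR1-651, but at place 9 with empty vector + AIL and 10 with AR1-651 + AIL. JAG1 was at place 4 with empty vector and at place 2 in the other 3 libraries. With empty vector + AIL, NOTCH3 (8.53), RBPJ (8.47) and NOTCH2 (8.46) were next to each other, and such neighbours cannot be ordered with 1 library.

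Counted against all genes, AR1-651 without AIL had 1 of the 10 genes at least 2-fold higher (HES6), where 4.01% of the 14626 genes were, and 3 at least 2-fold lower (NOTCH1, NOTCH3 and JAG2), where 11.6% were. The median difference of the 10 genes was -0.86, and that of all genes -0.30. With median-ratio scaling, which moved the median of all genes by 0.22, 1 gene remained at least 2-fold higher (HES6) and 1 lower (JAG2), while NOTCH1 stood at -0.94 and NOTCH3 at -0.96. Over all genes that scaling turned 586 higher and 1701 lower genes into 1066 higher and 817 lower ones.

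In empty vector cells, AIL had 3 of the 10 genes at least 2-fold higher (NOTCH1, HES1 and HEY1) and 1 lower (LFNG). Over all genes 9.53% were higher and 9.03% lower. The median difference was 0.34 for the 10 genes and -0.02 for all. In AR1-651 cells, AIL had 1 gene higher (NOTCH1) and 1 lower (LFNG), where 14.9% and 5.74% of all genes were, with medians of 0.11 and 0.13. Median-ratio scaling moved the median of all genes by -0.15 here, and NOTCH1 then stood at 0.95. It turned 2184 higher and 839 lower genes into 1582 and 1261.

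With AIL in both libraries, AR1-651 had 0 of the 10 genes at least 2-fold higher and 3 lower, again NOTCH1, NOTCH3 and JAG2. With median-ratio scaling JAG2 stood at -0.97, and the count was 2. Over all genes 1.46% were higher and 3.53% lower, and the medians were -0.58 and -0.03. The genes were chosen with these values in view, so nothing is read from these counts. The comparisons share libraries, so 2 of them that give the same genes are not independent of each other.

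**Figure D3:**
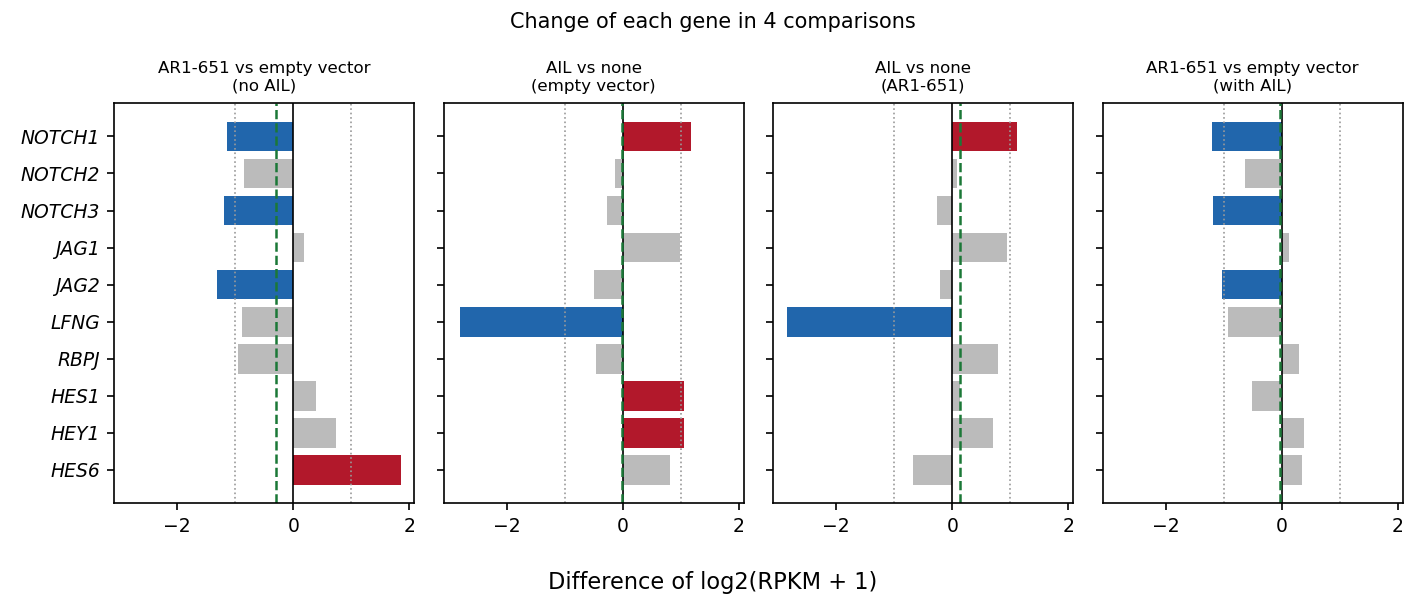
Difference of log2(RPKM + 1) for each gene in the 4 comparisons, with red and blue bars for at least 2-fold higher and lower, dotted lines at 2-fold and a dashed green line at the median of all genes. LFNG has the longest bars, -2.81 and -2.85, in the AIL comparisons, and HES6 the longest, 1.85, for AR1-651 without AIL.

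Transcript length moved with the AR1-651 differences. Among 14228 genes with a known length, the median difference without AIL went from 0.16 in the shortest of 6 equal groups to -0.70 in the longest, which starts at 4861 nt. In that longest group 26.4% of the genes were at least 2-fold lower and 0.759% higher. All of NOTCH1 (9306 nt), NOTCH2 (11389 nt), NOTCH3 (8666 nt), JAG1 (5940 nt) and JAG2 belonged to it, while HES6 had 1286 nt and HES1 1578 nt. After a trend in length and GC content was removed, NOTCH1 stood at -0.18, NOTCH3 at -0.22 and JAG2 at -0.42, and 0 of the 10 genes was at least 2-fold lower. JAG1 stood at 0.76 and HES6 at 2.07.

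With AIL in both libraries, the median of the longest group was -0.07, and 4.13% of its genes were at least 2-fold lower. NOTCH1 stood at -1.20, NOTCH3 at -1.18 and JAG2 at -1.03. The fitted trend in length and GC content at these 3 genes was -0.70, -0.70 and -0.72. Removing the trend in length and GC content left -0.50, -0.48 and -0.31. Transcripts of NOTCH1, NOTCH3 and JAG2 had a GC content of 62.9%, 63.1% and 64.2%. NOTCH2 and JAG1, in the same length group, had 49.4% and 49.6%, and the fitted trend there was -0.26 and -0.25. The part of transcript length and base composition in these receptor and ligand values was not tested. The LFNG differences with AIL were -2.80 and -2.74 after removal of the trend, close to those before it.

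**Figure D4:**
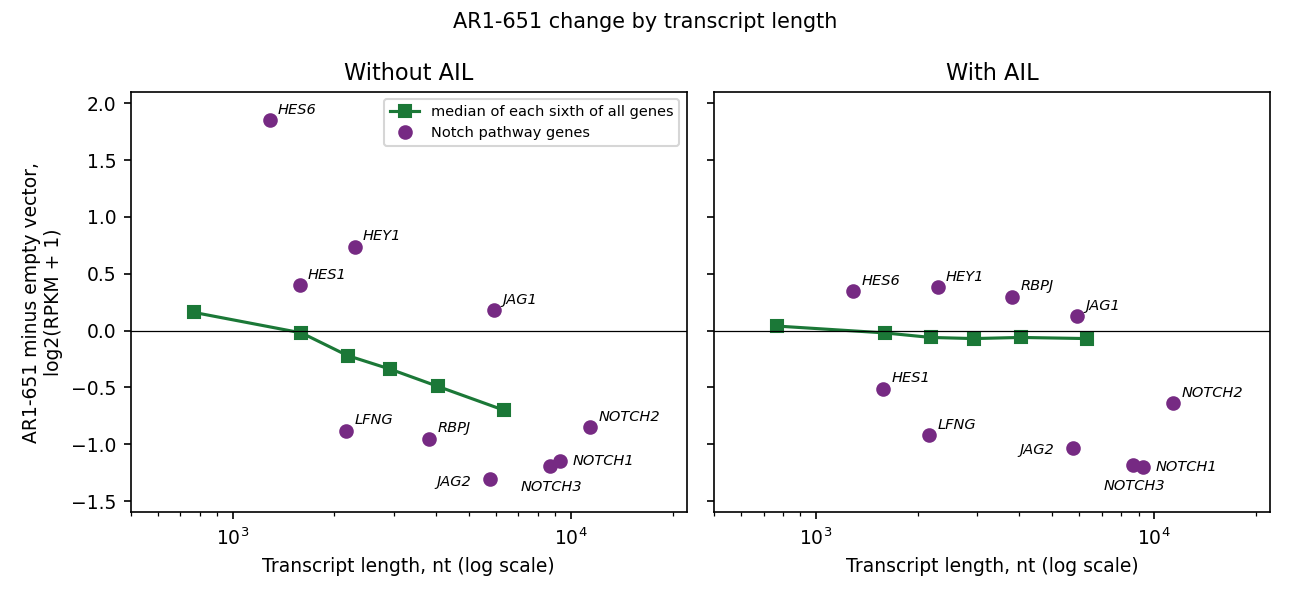
AR1-651 minus empty vector, in log2(RPKM + 1), against transcript length on a log axis, without AIL on the left and with AIL on the right. Green squares are medians of 6 equal groups of all genes, from 0.16 to -0.70 without AIL, and purple points are the 10 genes.

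The rest of the pathway was followed in lists of 78 further genes, of which 73 were analysed and 60 reached an RPKM of 1 in some library. AR1-651 without AIL had 1 of these at least 2-fold higher (HES4) and 14 lower, with a median of -0.60, where 4.01% and 11.6% of all genes were and their median was -0.30. With median-ratio scaling these counts were 1 and 6. AIL had 3 higher and 4 lower in empty vector cells, beside 9.53% and 9.03% of all genes, and the counts were the same with median-ratio scaling. In AR1-651 cells AIL had 6 higher and 4 lower, beside 14.9% and 5.74% of all genes, and 5 and 7 with median-ratio scaling. AR1-651 with AIL had 0 higher and 4 lower, beside 1.46% and 3.53%, and 0 and 3 with median-ratio scaling. The same shares of all genes apply to the counts of each list below. These lists were also drawn up with earlier results of these data known.

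Of 6 other glycosyltransferases, GXYLT1 was at least 2-fold lower with AR1-651 without AIL (-1.08) and higher with AIL in AR1-651 cells (1.36). This xylosyltransferase gene of the receptors had an RPKM of 3.93 with empty vector and 2.99 with empty vector + AIL, against 1.34 with AR1-651 and 5.0 with AR1-651 + AIL. With the trend in length and GC content removed these were -0.55 and 0.67, and with median-ratio scaling 0 of the 6 genes was at least 2-fold lower with AR1-651 without AIL. RFNG was lower with AR1-651 when AIL was present (-1.06), and at -0.58 with the trend removed. POFUT1, which adds the fucose that fringe enzymes extend, had 27.37, 22.58, 18.44 and 16.23 and stayed within 2-fold in all 4 comparisons. Of 3 other receptor and ligand genes with an RPKM of at least 1, only DLK2, a ligand-like membrane protein, passed 2-fold, and it was lower with AR1-651 without AIL (-1.16, and -0.93 with the trend removed).

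Of the nuclear coactivators, 4 of 7 were at least 2-fold lower with AR1-651 without AIL, namely MAML1, EP300, CREBBP and KAT2A. With median-ratio scaling the count was 1. Of all genes 11.6% were lower, and of the longest group 26.4%. MAML1, EP300 and CREBBP belonged to the longest group, while KAT2A (3109 nt), KAT2B (4833 nt) and SNW1 (2163 nt) were too short for it. MAML1, the Mastermind protein that bridges the Notch domain and the acetyltransferases, had an RPKM of 12.50 with empty vector and 20.43 with empty vector + AIL, against 4.84 with AR1-651 and 10.41 with AR1-651 + AIL. The acetyltransferase genes EP300 (10.08, 14.37, 3.45 and 7.41) and CREBBP (9.97, 17.64, 4.09 and 9.05) had the same order of libraries as MAML1, which was also that of NOTCH1. After removal of the trend in length and GC content, the AR1-651 differences of MAML1, EP300, CREBBP and KAT2A were -0.54, -0.60, -0.31 and -0.63. SNW1, which encodes a splicing factor that also binds the Notch complex, had 29.96, 76.52, 21.63 and 111.03, and was higher with AIL by 1.32 and 2.31.

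Of the corepressors, 3 of 12 were at least 2-fold lower with AR1-651 without AIL (SPEN and TLE3 among them) and 3 with AIL (TLE2 and TLE3 among them), beside 11.6% and 3.53% of all genes. With median-ratio scaling both counts were 2. With the trend in length and GC content removed, SPEN stood at -0.46 and TLE3 at -0.84 without AIL, and TLE2 at -0.73 and TLE3 at -0.58 with AIL, all within 2-fold. TLE3, a Groucho corepressor that works with HES proteins, had an RPKM of 72.36 with empty vector and 65.68 with empty vector + AIL, against 30.34 with AR1-651 and 32.24 with AR1-651 + AIL. Its AIL differences were -0.14 and 0.08. SPEN, which encodes a large corepressor that binds RBPJ, had 5.28, 4.53, 1.75 and 1.88 in the same order. KDM5A, a histone demethylase, was the only corepressor gene at least 2-fold higher with AIL, in AR1-651 cells (1.03), beside 14.9% of all genes. It stood at 0.52 with the trend removed, and no corepressor gene was at least 2-fold higher with median-ratio scaling.

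Of 9 genes of receptor and ligand cleavage, 2 were at least 2-fold lower with AR1-651 without AIL (ADAM10 and FURIN), and 1 was lower with AIL in each background. Of all genes 11.6% were lower in the AR1-651 comparison. The count of 2 was 1 with median-ratio scaling, and with the trend in length and GC content removed ADAM10 stood at -0.83 and FURIN at -0.31. ADAM10, which makes the first cut after ligand binding, had an RPKM of 24.06 with empty vector and 9.55 with empty vector + AIL, against 7.30 with AR1-651 and 11.16 with AR1-651 + AIL, so the empty vector library stood above the other 3. FURIN, which cuts the receptor precursor, had 15.98, 12.44, 7.43 and 6.25. PSEN2, a catalytic subunit of gamma-secretase, had 18.17, 9.01, 19.12 and 8.51, lower with AIL by -0.94 and -1.08.

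Of 15 genes of endocytosis and turnover, AIL had 1 at least 2-fold higher and 2 lower in empty vector cells, and 2 higher and 1 lower in AR1-651 cells. Of all genes 9.53% were higher and 9.03% lower in the former, and 14.9% and 5.74% in the latter. FBXW7, the ubiquitin ligase subunit that marks the Notch intracellular domain for degradation, had an RPKM of 3.67 with empty vector and 18.31 with empty vector + AIL, against 2.13 with AR1-651 and 29.63 with AR1-651 + AIL. Its AIL differences were 2.05 and 3.29. EPN1, an epsin that takes part in ligand endocytosis, went the opposite way, with 95.13, 26.65, 58.00 and 15.70 and differences of -1.80 and -1.82. ITCH, another ubiquitin ligase, had 8.79, 12.99, 6.88 and 18.07, and its AIL difference of 1.28 in AR1-651 cells was 0.76 with the trend removed. NUMBL, an endocytic Notch antagonist, had 12.30, 5.92, 4.55 and 3.40. DTX3, a Deltex gene, was low, with 1.70, 0.20, 0.35 and 0.25. AR1-651 without AIL had 2 of the 15 genes lower, NUMBL and DTX3, which stood at -0.86 and -0.79 with the trend removed, and 1 with median-ratio scaling.

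The list of target genes, related HES and HEY genes and the NOTCH2 copy NOTCH2NLA held 8 genes that reached an RPKM of 1. AIL had CDKN1A at least 2-fold higher and MYC lower in both backgrounds, and HES4 lower in AR1-651 cells (-1.21, and -0.96 with the trend removed). Of all genes 9.53% were higher and 9.03% lower in empty vector cells, and 14.9% and 5.74% in AR1-651 cells. MYC had an RPKM of 63.03 with empty vector and 9.83 with empty vector + AIL, against 26.53 with AR1-651 and 7.86 with AR1-651 + AIL, lower with AIL by -2.56 and -1.64. CDKN1A, the gene of the cell cycle inhibitor p21, had 154.57, 551.05, 131.88 and 360.60, higher by 1.83 and 1.44. NRARP, a feedback gene of the pathway, had 8.32, 5.40, 5.39 and 5.16 and stayed within 2-fold. HES5, HES7 and HEY2 were under an RPKM of 1 in all libraries. These genes did not share a direction with AIL.

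**Figure D5:**
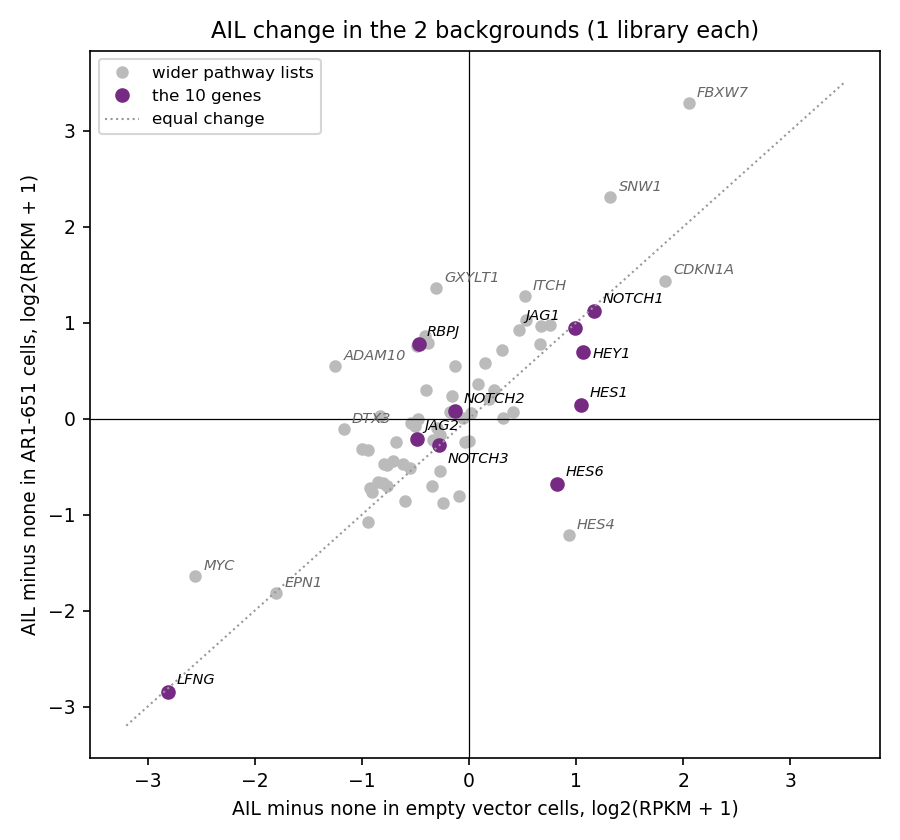
AIL difference in log2(RPKM + 1) in AR1-651 cells (vertical) against that in empty vector cells (horizontal), with purple points for the 10 genes, grey for 60 genes of the wider lists and a dotted line for equal differences. LFNG lies on the line at -2.81 and -2.85, HES6 and HES4 lie below it, and FBXW7, SNW1, GXYLT1 and ADAM10 above it.

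The genes whose profile over the 4 libraries was nearest to that of LFNG were sought among 11870 genes with an RPKM of at least 1 in every library. The measure was the Euclidean distance between log2(RPKM + 1) profiles, each centred on its mean over 4 libraries. The nearest were MARCKSL1 (distance 0.49), FGFRL1 (0.53), IGF2R (0.56), LPCAT1 (0.57) and INSIG1 (0.59). MARCKSL1 had an RPKM of 355.96 with empty vector and 66.80 with empty vector + AIL, against 265.14 with AR1-651 and 42.19 with AR1-651 + AIL. IGF2R, the receptor for mannose 6-phosphate and IGF2, had 37.33, 5.74, 21.39 and 3.80. Each of the 5 was lower in both libraries with AIL than in both without it, as LFNG was. The 5 were picked for nearness to LFNG over these same libraries, so this likeness follows from the choice. With 4 libraries, many genes can share such a profile.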

How the data were processed

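RNA-seq of 4 LNCaP libraries was used, 1 per condition. The authors deposited RPKM (read number over exon length and library total), rounded to 2 decimals, for 19801 genes by Entrez Gene identifier. The submitters' processing notes name BWA 0.7.10-r789 and hg19; genes carry RefSeq transcript identifiers per the file headers, and the annotation release and counting tool are not given in the sources used here. The sources name both a ribosomal RNA removal kit and oligo(dT) selection, so the RNA selection is unclear. Total reads are not given, so the depth and the counting error of each value are unknown.

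A RefSeq gene table gave symbols for 19703 genes. Lengths and GC content of transcripts were read from GENCODE release 29, matched on RefSeq identifiers. Differences of log2(RPKM + 1) were taken over the 14626 genes that reached RPKM 1 in any library, and 2-fold on that scale counted as higher or lower. With 1 library per condition no test was run. The 10 genes and the wider lists were chosen with earlier results of these data known. All 10 genes are named. Values of a few other genes are left out and not reported here. Otherwise a gene of the wider lists is named if it passed 2-fold in a comparison or stands beside a member of its family or role, and for LFNG and HES1 the 5 genes with the nearest profile are named.

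Alternatives were median-ratio scaling, a pseudocount of 0.1, a minimum RPKM of 5 or none, 1.5-fold as the threshold, rescaling without 85 genes of ribosomal proteins, and removal of a trend in length and GC content (polynomials of degree 3 in ranks). Promoter windows were RefSeq GRCh38.p14 tables; gene positions on hg19 were not used. Python 3.11.15, NumPy 2.4.6 and pandas 2.3.3 were used, and Matplotlib 3.10.9 for plots.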

Additional observations from a re-analysis of the deposited data

Results flagged for a closer look

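Some genes had differences of opposite sign in the backgrounds compared, with 1 library each, so the difference between the backgrounds was not tested. The values are the AIL difference in AR1-651 cells minus that in empty vector cells, in log2(RPKM + 1), which equals the AR1-651 difference with AIL minus that without AIL. Among the 10 genes, HES6 had -1.50 and NOTCH2 0.21, with opposite AIL differences. HES1 had -0.91, with AR1-651 differences of 0.40 without AIL and -0.51 with AIL. RBPJ had 1.26 and opposite signs both ways.

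In the wider lists, both pairs of signs were opposite for ADAM10 (1.80), DLK2 (1.25), GXYLT1 (1.66) and HES4 (-2.15). Only the AIL differences were opposite for SPEN (0.25) and TLE3 (0.22). Only the AR1-651 differences were opposite for DTX3 (1.06), FBXW7 (1.24), ITCH (0.76), PSEN2 (-0.14) and SNW1 (0.98). With the trend in length and GC content removed, neither pair was opposite for ADAM10. Its AIL differences were then -1.03 and -0.26, and its AR1-651 differences -0.83 and -0.06. The AR1-651 differences of PSEN2 were then 0.22 and 0.14, also of the same sign. The small values of NOTCH2, PSEN2, SPEN and TLE3 come from differences near 0 in at least 1 of the comparisons. DLK2 and DTX3 also had an AR1-651 difference near 0 with AIL, at 0.08 and 0.06. DLK2 was low, with an RPKM of 3.55, 2.24, 1.03 and 2.43 in the order of libraries given above.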

How the results depend on the processing

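The lower LFNG values with AIL passed 2-fold in both backgrounds under all 7 alternatives, and so did the higher HES6 value with AR1-651 without AIL. The filter and threshold settings leave each gene's difference as it is. Of the 40 differences of single genes, 35 kept their direction and side of 2-fold with a pseudocount of 0.1, 34 with median-ratio scaling, 37 without ribosomal protein genes and 28 with the trend removed. The sign changed for 2 differences with median-ratio scaling and for 3 with the trend removed, all of them within 2-fold. NOTCH2 with AIL in AR1-651 cells was among both. For AR1-651 without AIL, the genes at least 2-fold higher numbered 2 with a pseudocount of 0.1 and 2 at 1.5-fold, against 1. Those lower numbered 1 with median-ratio scaling, 6 at 1.5-fold, 5 without ribosomal protein genes and 0 with the length and GC trend removed, against 3. With AIL in empty vector cells, 5 were higher at 1.5-fold, against 3. With AIL in AR1-651 cells, 2 were higher with a pseudocount of 0.1, 0 with median-ratio scaling and 4 at 1.5-fold, against 1, and 2 were lower at 1.5-fold, against 1. For AR1-651 with AIL, 5 were lower at 1.5-fold and 0 with the trend removed, against 3. Larger counts at 1.5-fold follow from the lower threshold. For the other settings the cause was not tested. Over all genes, AR1-651 without AIL gave 586 higher and 1701 lower genes, against 1066 and 817 with median-ratio scaling, 381 and 2508 without ribosomal protein genes, 769 and 3047 with a pseudocount of 0.1 and 684 and 546 with the trend removed. No paired analysis was possible because each condition had 1 library. The unknown depth limits low values such as those of HEY1, and of LFNG with AIL.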

Other observations

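The profile nearest to that of HES1, among 11870 genes with RPKM of at least 1 in every library, was that of GNB1L, at a distance of 0.09. It had an RPKM of 5.08 with empty vector and 12.27 with empty vector + AIL, against 7.58 with AR1-651 and 8.65 with AR1-651 + AIL. TARBP2 (0.12), DUSP23 (0.14), FAM88B (0.15) and C19orf25 (0.17) followed. TARBP2, a partner of Dicer, had 18.04, 34.30, 22.08 and 25.61 in the same order. All of them were highest with empty vector + AIL and lowest with empty vector, as HES1 was. They were picked for nearness to HES1 over these same libraries, so this likeness follows from the choice.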
